A study of Glycine max with 4 samples.

Results

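Cotyledons of soybean seedlings were compared with cotyledons of late-maturation embryos, so that 2 of the 4 libraries of the series were set against each other. Of the 66210 gene models in the count files, 31121 entered, namely those that reached 1 scaled CPM in one of these libraries or both. Scaled CPM is the count per 1000000 reads after the library sizes were adjusted with TMM (trimmed mean of M-values) factors from all 4 libraries. The seedling library (28190429 counts) came from cotyledons of Williams 82 seedlings grown on soil and taken 6 days after imbibition. The AA1 library (38011608 counts) came from yellow cotyledons of greenhouse-grown Williams 82 embryos at late maturation, a pair weighing 200 to 350 mg, dissected free of seed coat and embryo axis. The other libraries were green mid-maturation cotyledons (stage B1, 16120894 counts) and whole dry seeds with a small part of seed coat and axis (21512278 counts). All 4 were polyadenylated RNA of the same cultivar. Each stage had 1 library, so no test across samples is possible, and stage cannot be told apart from plants, growth conditions or library preparation. A lower share of reads can mean less of that RNA per cell or fewer cells that hold it, and these cannot be told apart in bulk tissue.

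The cotyledons fill most of the soybean seed and store its protein and oil. They lose their green colour as the embryo matures and dries. After germination they are lifted above the soil, break down their reserves for the growing seedling, turn green and photosynthesise until the first leaves take over. None of the 66210 identifiers matched an entry among 59048 genes of the RefSeq table of assembly Glycine_max_v4.0. Gene models are therefore described by identifier or as groups, without product names, and the labelled tissue could not be checked against marker genes. The counts take no account of gene length, and an order of gene models by reads is not an order by molecules.

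More gene models were higher in the seedling cotyledon than lower, while the lower ones had held the larger part of the late-maturation transcript pool. At least 4-fold higher in the seedling were 7715 gene models, 24.8% of those that entered, and at least 4-fold lower were 3329, or 10.7%. The higher ones thus made up 69.9% of those 4-fold apart. With plain total counts in place of TMM they made up 82.3%, with 10247 higher and 2209 lower. That scaling places every seedling to AA1 ratio 0.52 higher on the log2 scale. For these calls counts under 3 were set to 3, which is 0.07 scaled CPM in either library. The higher group took 47.5% of all seedling counts (exact binomial 95% interval 47.48% to 47.52%) and 1.62% of AA1 counts (1.617% to 1.625%). The lower group took 4.07% of seedling counts (4.064% to 4.079%) and 59.4% of AA1 counts (59.34% to 59.37%). The groups were chosen on these libraries, so the direction of each share follows from the choice, and the intervals cover counting error only. The remaining 20077 gene models, less than 4-fold apart, took 47.9% of seedling and 38.8% of AA1 counts. The members nearest the 4-fold limit show how little separates the groups there. The last gene model counted as higher had 259 counts in the seedling and 61 in AA1, and the first left out on that side had 46256 and 10900. On the other side the last one counted as lower had 13 counts in the seedling and 49 in AA1, and the first left out had 43 and 162.

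**Figure D1:**
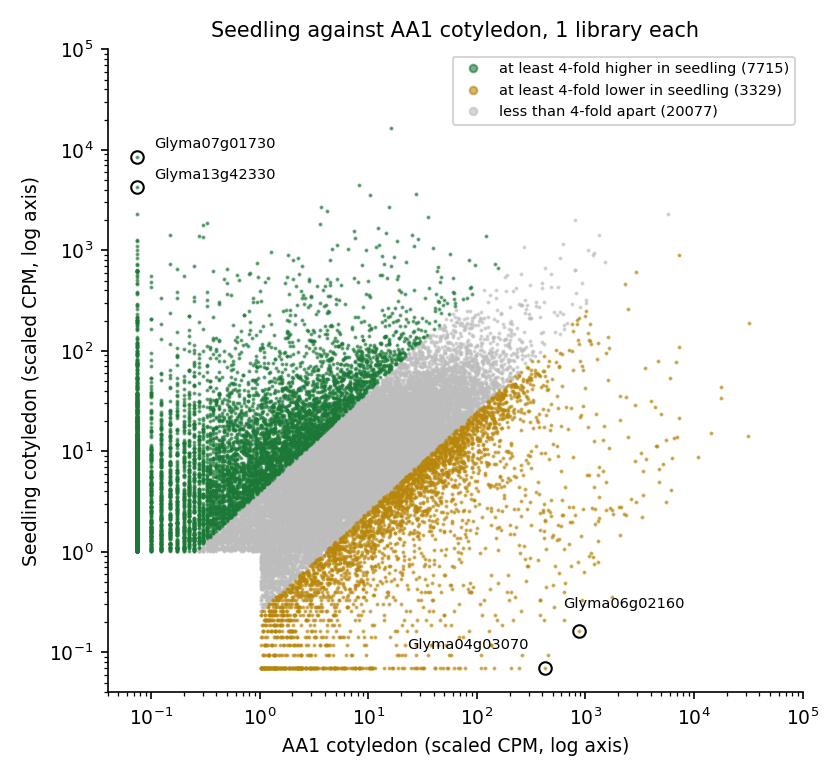
Level of each of the 31121 gene models in the seedling library (vertical axis) and the AA1 library (horizontal axis), in scaled CPM on log axes, with counts under 3 drawn at 3. Green points are at least 4-fold higher in the seedling (7715), ochre points at least 4-fold lower (3329), and circles mark the 4 named gene models, which lie at the upper left and lower right edges.

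The excess of higher over lower gene models grew with the size of the change up to 16-fold and shrank again beyond 32-fold. At 2-fold, 11445 were higher and 7604 lower, a ratio of 1.51. At 16-fold the numbers were 3688 and 852, a ratio of 4.33, and at 32-fold they were 2232 and 517, a ratio of 4.32. At 100-fold 900 were higher and 262 lower, and at 1000-fold 108 and 41, a ratio of 2.63. The middle of the distribution lay close to 0, with a median log2 ratio of 0.24 (-0.049 with upper-quartile scaling), and its upper side was longer. The 95th percentile was 5.70 and the 5th percentile -2.98.

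The balance of directions differed between classes of level. A class is set by the higher of both levels that form the ratio, so a large change itself can bring a gene model into a high class. Among the 15035 gene models whose higher level was 1 to 10 scaled CPM, 28.3% were at least 4-fold higher in the seedling and 7.95% lower, with a median log2 ratio of 0.52. In the class of 10 to 100 scaled CPM, 20.7% of 14400 were higher and 10.3% lower, with a median of -0.002. From 100 to 1000 scaled CPM the balance was the other way, with 28.9% of 1550 higher and 36.2% lower and a median of -1.14. Total counts turned this class round, with 39.6% higher, 20.1% lower and a median of 0.78, while the other 4 scalings tried kept the lower side ahead. Of the 136 gene models at 1000 or more, 35 were higher in the seedling and 90 lower, with a median of -6.08, and in this class the lower side led under all 5 other scalings (53.5% to 72.7% lower). Below 100 scaled CPM calls were thus mostly higher in the seedling, and at 1000 or more mostly lower, under each scaling tried.

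**Figure D2:**
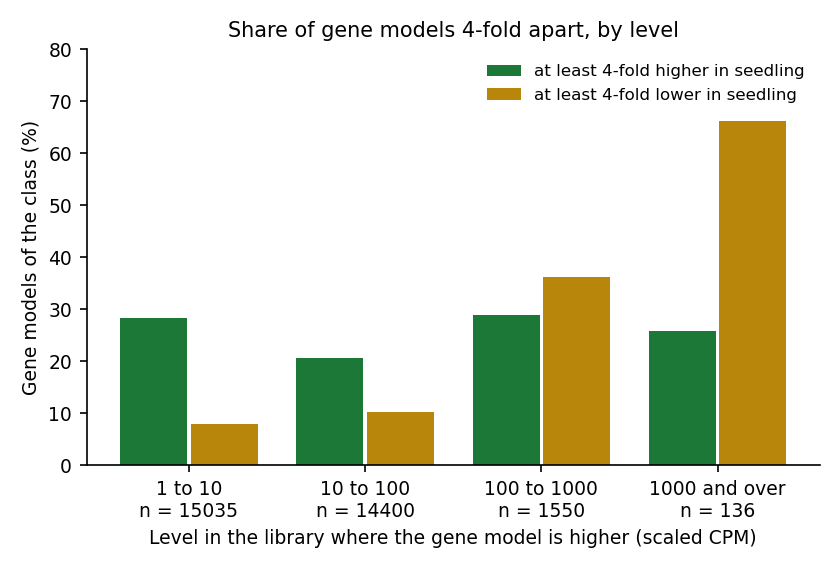
Share of gene models at least 4-fold higher (green, left bars) or lower (ochre, right bars) in the seedling, in % of each class of level in scaled CPM. The higher share stays between 20.7% and 28.9%, while the lower share goes up with level to 66.2% at 1000 scaled CPM or more. The class is set by the higher of both levels, so size of change and class are tied together.

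The part of the pool that was lost was concentrated in few gene models, and the part gained was spread over many. In percent of all counts, 63.4 percentage points moved between the libraries. Losses were found in 14955 of the gene models, and 53 of them made up 50% of the total loss. Gains were found in 31659, and 479 were needed for 50% of the gain. The 10 largest gains made up 12.1% of all gain, against 25.2% of all loss for the 10 largest losses. Within the higher group, 179 gene models held 50% of the group's seedling counts, while 41 of the lower group held 50% of that group's AA1 counts. Of the higher group, 55.2% stood below 10 scaled CPM in the seedling, and 35.9% of the lower group stood below 10 in AA1. The percentage points, gains and losses are shares of reads, which amounts to scaling by total counts. The shares of a library add up to a fixed total, so a large loss in few gene models raises the shares of others. The numbers of gains and losses depend on this. The groups and the limit of 10 scaled CPM rest on the TMM factors.

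The gene models with the most reads in one library were mostly far lower in the other. All 10 with the most reads in the seedling were at least 4-fold higher there. Their levels ran from 2298 to 16326 scaled CPM in the seedling, with a median of 3606, against 0.02 to 27.7 in AA1, with a median of 6.23. Their median rank in AA1 was 14866. Of the 100 with the most reads in the seedling, 82 were in the higher group, 2 in the lower group and 16 in neither. All 10 with the most reads in AA1 were at least 4-fold lower in the seedling, with levels of 8.82 to 893 scaled CPM in the seedling, median 27.9, against 6899 to 32172 in AA1, median 12582. Their median rank in the seedling was 4789, and 1 of them was among the 100 with the most reads there. Of the 100 with the most reads in AA1, 0 were in the higher group, 92 in the lower group and 8 in neither. The libraries had 8 gene models in common among their 100. Over all gene models that entered, 24.8% were in the higher group and 10.7% in the lower group. Each set was picked for high reads in a library that also forms the ratio. This choice itself favours the direction found.

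Single gene models at the top show the range. The one with the most reads in the seedling, on chromosome 8 by its identifier, had 16326 scaled CPM in the seedling and 16.1 in AA1, a ratio of 1014 (interval 939 to 1097). It stood at 1.17 in B1 and 8.16 in dry seed, so all seed libraries were far below the seedling. The third in the seedling, on chromosome 5, had 4448 scaled CPM there and 8.29 in AA1, a ratio of 537 (482 to 600). It reached 315 in B1 and was at 1.37 in dry seed, so the green embryonic cotyledon was intermediate. The one with the most reads in AA1, on chromosome 9, had 188 scaled CPM in the seedling and 32172 in AA1, 171-fold lower in the seedling (167 to 175). It had 9898 in B1 and 20668 in dry seed and thus was lowest in the seedling. The fifth in AA1, on chromosome 3, had 15.3 scaled CPM in the seedling and 14313 in AA1, 935-fold lower in the seedling (866 to 1011). Its levels were highest in B1, at 72552, and lower in dry seed, at 2146.

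The largest folds were found among gene models close to 0 in one library. They were picked as the most extreme among the 1005 gene models of the higher group with at least 50 scaled CPM in the seedling and the 1088 of the lower group with at least 50 in AA1, so this choice itself makes the folds large, which their counting intervals leave out of account. Glyma07g01730, the second by reads in the seedling, had 362310 counts in the seedling and 3 in AA1, or 8521 and 0.07 scaled CPM. Its ratio was 113797 (38939 to 551815). In B1 it was at 2.24 scaled CPM and in dry seed at 0.39, so the seedling library stood alone. Glyma13g42330, the fourth in the seedling, had 180890 counts in the seedling and 3 in AA1, or 4254 and 0.07 scaled CPM, a ratio of 56815 (19441 to 275505). Its levels were 1.07 in B1 and 0.43 in dry seed, again low in every seed library.

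Glyma04g03070 had 2 counts in the seedling and 17136 in AA1, or 0.05 and 428 scaled CPM. It was 9093-fold lower in the seedling (2517 to 75090). Its B1 level was 247 scaled CPM and its dry-seed level 26.5, so dry seed lay between those of AA1 and the seedling. Glyma06g02160 had 7 counts in the seedling and 35274 in AA1, or 0.16 and 880 scaled CPM, and was 5348-fold lower (2595 to 13303). Its levels were 1451 in B1 and 142 in dry seed. Both of these gene models were thus well below their AA1 level in the dry-seed library.

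Some gene models that entered had no read at all in one of the libraries. With 0 counts such a gene model can enter only through the other library, so its direction follows from this rule. There were 56 with no read in the seedling, all in the lower group of 3329. There were 905 with none in AA1, all in the higher group of 7715. These numbers were thus more unequal than the calls. The 905 had a median of 3.25 scaled CPM in the seedling, 193 of them reached 10 and 26 reached 100. The highest stood at 1269 scaled CPM in the seedling, at least 16948-fold higher when AA1 is put at the floor of 3 counts. Of the 905, 490 also had 0 counts in B1, 690 had 0 in dry seed and 409 had 0 in all seed libraries, while 1 scaled CPM was reached by 115 in the B1 library and by 11 in dry seed. Of all 31121 that entered, 1723 had 0 counts in B1 and 1951 in dry seed, while 24737 and 22412 reached 1 scaled CPM there. The 56 had a median of 3.62 scaled CPM in AA1 and 0 of them reached 100. At least 1 scaled CPM was present for 35 of the 56 in B1 and for 26 in dry seed. Over all gene models that entered the shares were larger, at 79.5% and 72.0%. A count of 0 here allows up to 3 counts.

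Levels in B1 and dry seed were not used to choose the groups and show where the members stood in green embryonic cotyledons and in the dry seed. In stage order from B1 through AA1 and dry seed to seedling, the higher group had median levels of 1.28, 0.40, 0.21 and 8.23 scaled CPM. For all gene models that entered, the medians were 5.02, 5.29, 4.68 and 7.27. The higher group was thus low in B1 and dry seed as well as in AA1, and among these highest in B1. Its low AA1 level follows from the choice. Only 32.8% of its members reached 1 scaled CPM in AA1, and the others entered through the seedling alone. The comparisons with all gene models that entered carry this entry limit. Of its 7715 members, 2572 (33.3%) reached 1 scaled CPM in B1 and not in dry seed, and 396 (5.13%) did so in dry seed and not in B1. The corresponding shares of all gene models that entered were 14.2% and 6.71%. Neither B1 nor dry seed reached 1 scaled CPM for 39.8% of the higher group, against 13.8% of all. The B1 library is the shallowest, with 0.32 scaled CPM for 3 counts, against 0.13 in dry seed.

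The lower group had medians of 8.76, 21, 19.4 and 2.05 scaled CPM in the same stage order. It was thus about as high in dry seed as in AA1, and both lay above B1. At least 1 scaled CPM was present in both dry seed and B1 for 76.5% of its members, against 65.3% of all that entered. By the choice all its members reached 1 scaled CPM in AA1, against 80.2% of all, and this comparison carries that limit. It held 74.1% of all B1 counts and 48.2% of dry-seed counts. Although the typical member was lower in B1, the group's share of reads was thus largest there.

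**Figure D3:**
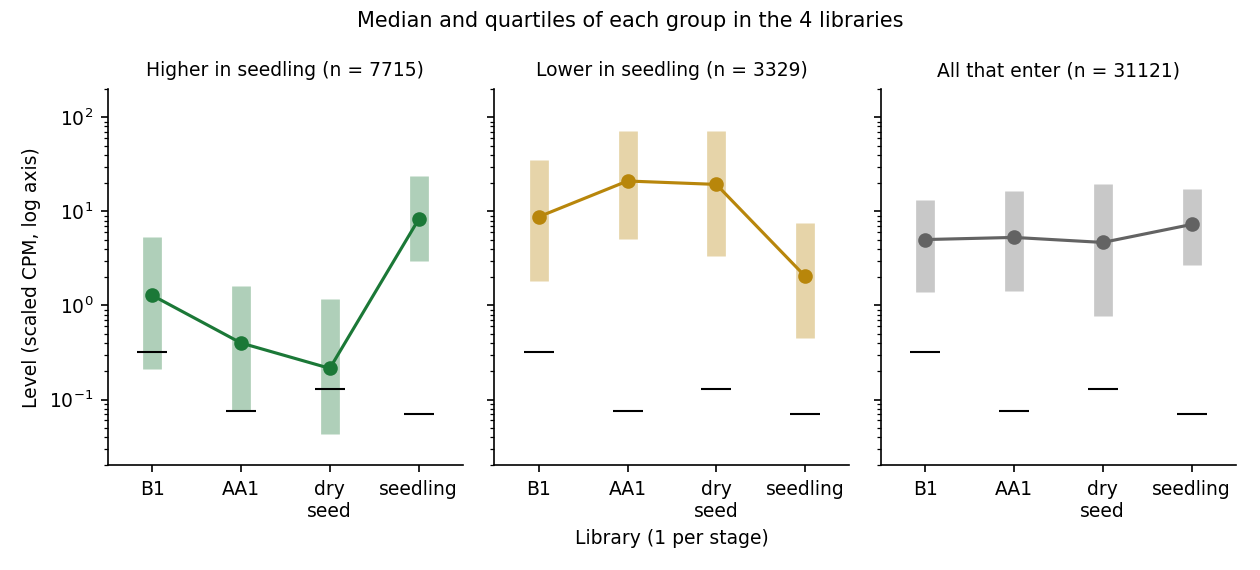
Median level (points) and quartiles (bars) in scaled CPM on a log axis of the higher group, the lower group and all gene models that entered, in the 4 libraries in stage order, with black dashes at the level of 3 counts. The higher group has its lowest median in dry seed (0.21) and its highest in the seedling (8.23), and the lower group its highest in AA1 (21) and its lowest in the seedling (2.05).

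The ratio of dry seed to B1 uses neither of the libraries that chose the groups. It was taken over every member, with levels under 0.32 scaled CPM (3 counts in B1) set to that value in both libraries. Of the 7715 gene models of the higher group, dry seed was at least 4-fold below B1 for 2601 (33.7%) and at least 4-fold above it for 337 (4.37%). Of the 3329 of the lower group, dry seed was at least 4-fold below B1 for 414 (12.4%) and at least 4-fold above it for 1101 (33.1%). Over all 31121 gene models that entered, the shares were 17.7% lower and 17.4% higher. The median log2 ratio of dry seed to B1 was -0.74 in the higher group, 0.98 in the lower group and 0 over all. Total counts in place of TMM place every unfloored ratio of dry seed to B1 0.90 higher on the log2 scale, so signs are to be read relative to all gene models. In the higher group 1958 members (25.4%) were at the floor in both libraries and so had a ratio of 1. The dry-seed library alone held seed coat and axis, and the part of these tissues in the values was not tested.

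The shares depend on which members are counted. Of the 29063 gene models that reached 1 scaled CPM in one of dry seed and B1 or both, dry seed was at least 4-fold above B1 for 20.1% and at least 4-fold below it for 24.1%. Of the higher group, 4641 members passed this limit, 2572 of them through B1 alone and 396 through dry seed alone. Among the 4641, 59.2% were at least 4-fold lower in dry seed and 7.26% at least 4-fold higher, with a median log2 ratio of -2.74. Since most of these passed only through the library in which they were high, this share is not set against the general one. Of the lower group 3126 members passed, with 13.3% at least 4-fold lower in dry seed, 35.2% at least 4-fold higher and a median log2 ratio of 1.10. With groups called again under total counts and the same limit, the medians were -1.14 for the higher group and 2.06 for the lower group. Gene models that entered both comparisons had 1.20 under that scaling. For the same reason the group medians are not set against it.

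**Figure D4:**
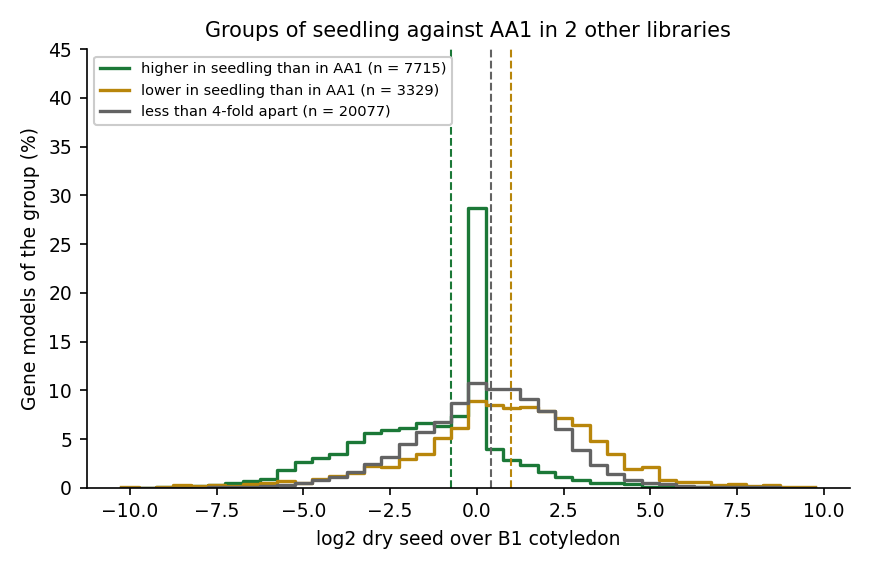
Distribution of the log2 ratio of dry seed to B1, in % of each group, over every gene model at least 4-fold higher in the seedling than in AA1 (green), at least 4-fold lower (ochre) and less than 4-fold apart (grey), with levels under 0.32 scaled CPM set to that value and dashed lines at the medians. The higher group has its median at -0.74 and a peak at 0 from the 25.4% of members at the floor in both libraries, the lower group has its median at 0.98, and the groups overlap widely.

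The higher group was also divided by the size of the change between AA1 and seedling. Over every member, 35.1% of the 4027 gene models that were 4-fold to 16-fold higher had a dry-seed level at least 4-fold below B1. The share was 30.9% of the 2788 that were 16-fold to 100-fold higher, 34.7% of the 792 at 100-fold to 1000-fold and 45.4% of the 108 at 1000-fold or more. At the floor in both dry seed and B1 were 12.9%, 39.3%, 38.3% and 36.1% of these classes, so the share did not change steadily with the size of the change. The 108 with the largest changes held 10.9% of seedling counts and 0.003% of AA1 counts. In stage order, their median levels were 1.07, 0.04, 0.04 and 234 scaled CPM. Of these, 50.9% reached 1 scaled CPM in B1, against 3.7% in dry seed. In the whole higher group the shares were 55.0% in B1 and 26.8% in dry seed. Over all gene models that entered they were 79.5% and 72.0%.

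In the lower group the profile turned as the size of the change went up. The 2477 gene models 4-fold to 16-fold lower had median levels, in stage order, of 8.01, 19.5, 19.8 and 3.13 scaled CPM. Their median log2 ratio of dry seed to B1, over every member, was 1.08, and dry seed was at least 4-fold above B1 for 33.1% of them. For the 590 between 16-fold and 100-fold lower the median log2 ratio was 0.91. The 221 that were 100-fold to 1000-fold lower had a median of -0.43, and those of them that reached 1 scaled CPM in dry seed or B1 had -0.46 with TMM and 0.44 with total counts. They held 50.1% of all B1 counts and 26.2% of AA1 counts. For the 41 at 1000-fold or more the median was -2.54, or -1.64 with total counts, and 53.7% were at least 4-fold lower in dry seed. Median levels of these 41 were 503, 641, 167 and 0.33 scaled CPM in stage order. The 41 gene models with the deepest fall were thus, by their median, lower in dry seed than in B1 under both scalings. A fall of 1000-fold can be seen only from a high AA1 level, so size of change and level are tied together here.

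Against dry seed in place of AA1, the seedling had 9813 gene models at least 4-fold higher (31.5% of 31169) and 4882 at least 4-fold lower (15.7%). Both comparisons share the seedling library, and the dry-seed one also differs in tissue. The members of the higher group had a median log2 ratio of 3.91 over AA1 and 4.21 over dry seed. Those of the lower group had -2.89 over AA1 and -2.81 over dry seed. For the gene models less than 4-fold apart the medians were -0.10 and -0.09. The groups were chosen on the seedling and AA1 libraries, and no test of the difference was possible.

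A fraction of gene models was nearly level between the stages. Within 1.5-fold of each other were 7535 of the 31121, or 24.2%, which took 18.5% of seedling counts and 13.3% of AA1 counts. Their median levels were 8.72 scaled CPM in the seedling and 8.86 in AA1, and those in B1 and dry seed were 6.94 and 9.66. Of the 1686 gene models that reached 100 scaled CPM in one of the libraries or both, 110 (6.52%) were within 1.5-fold. That class is set by the higher of both levels, so a large change itself can bring a gene model into it.

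The shares of gene models 4-fold apart differed little between the 20 chromosomes. The chromosome number was read from the identifier, as soybean gene models are named, for 31042 of the gene models that entered. The share at least 4-fold higher ran from 22.2% on chromosome 5 (exact binomial 95% interval 20.2% to 24.4%) to 27.0% on chromosome 12 (24.6% to 29.5%). The share at least 4-fold lower ran from 9.43% on chromosome 2 (8.11% to 10.9%) to 11.8% on chromosome 10 (10.3% to 13.4%). The interval left out the share over all gene models on 1 chromosome for the higher group, chromosome 5, and on 0 for the lower group. With 20 chromosomes and both directions, some 95% intervals can leave out the general share by counting error alone. They also treat gene models as independent. Chromosome 5 is thus not read as different.

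**Figure D5:**
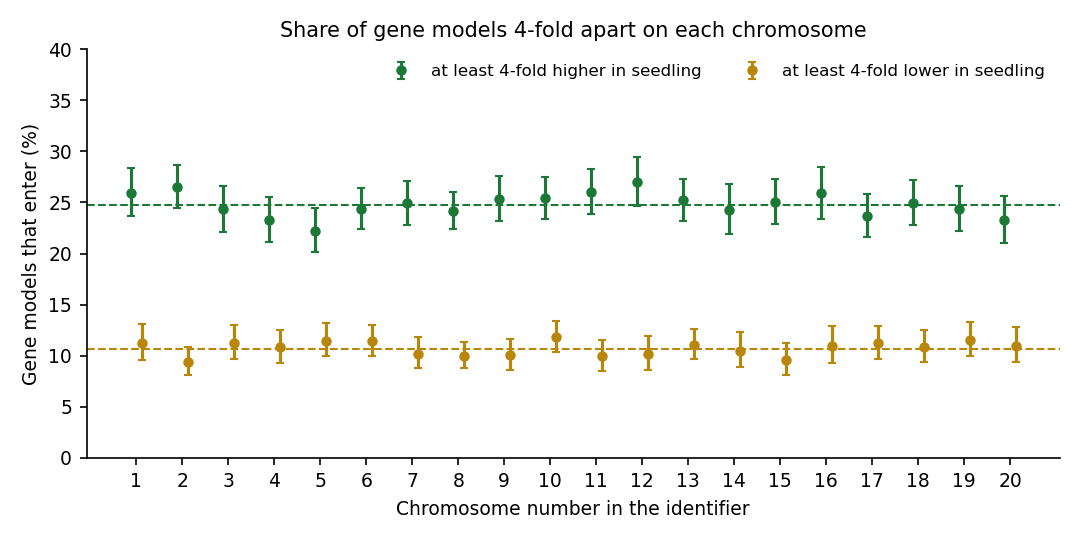
Share of gene models at least 4-fold higher (green) and lower (ochre) in the seedling, in % of those that entered on each chromosome, with exact binomial 95% intervals and dashed lines at the shares over all chromosomes. The points stay within 22.2% to 27.0% and 9.43% to 11.8%.

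Neighbouring gene models had the same direction somewhat more often than gene models in general. The gene model that followed a higher one in identifier order, among those that entered, was also higher in 2265 of 7694 cases, or 29.4% (28.4% to 30.5%), against 24.8% of all. The one that followed a lower one was also lower in 518 of 3321 cases, or 15.6% (14.4% to 16.9%), against 10.7% of all. Opposite calls were somewhat under the general share. A higher one was followed by a lower one in 9.71% of cases (9.06% to 10.4%), against 10.7% of all. A lower one was followed by a higher one in 22.3% (20.9% to 23.8%), against 24.8% of all. Adjacent near-identical copies can share reads in such files, and the part of this in the neighbour shares was not tested.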

How the data were processed

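The deposited files hold the authors' raw counts of mapped reads per gene model, per the file headers, with no normalization. The submitters' processing notes name Bowtie. Its version, the genome build, the annotation and the handling of reads with several matches are not stated in the labels or headers, so counts of near-identical copies are uncertain. The protocol in the labels has no step that marks strand or molecules. TMM factors (edgeR 4.0.16, R 4.3.3) from all 4 libraries were 1.51 for seedling, 1.05 for AA1, 1.08 for dry seed and 0.58 for B1. Ratios used counts floored at 3. Printed folds of single gene models are unfloored, with exact binomial 95% intervals. 35089 gene models stayed out as too low in both libraries, and 0 rows lacked an identifier.

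On simulated data for seedling over AA1 (66210 gene models, counting error only), 100 of 100 gene models changed 8-fold were called the right way, 0 of 100 changed 2-fold were called, and 0 of 29308 unchanged ones. The changed ones were drawn from gene models with a mean of at least 10 scaled CPM, where counting error is small beside the 4-fold limit. This checks the procedure only. Changes at lower levels were not simulated, though 55.2% of the higher group stood below 10 scaled CPM in the seedling. Members, lists and rules were chosen with earlier results of these data known. The named gene models are the 2 largest folds each way at 50 scaled CPM or more on the higher side, and others are given by rank. Alternatives covered 5 other scalings (DESeq2 1.42.0 size factors among them), filters, floors, the interval rule, a 2-fold limit and thinning AA1 to 28190429 counts. The comparison with dry seed over B1, the fold classes and their alternatives, among them the ratio over every member, were added after the data were seen.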

Additional observations from a re-analysis of the deposited data

How the results depend on the processing

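With 1 library per stage no replicate could be left out. No paired analysis was possible because each stage has a single sample. More gene models were higher than lower under every alternative run. The share of higher among those 4-fold apart, 69.9% here, was 82.3% with total counts, 68.6% with DESeq2 size factors, 61.6% with the upper quartile, 72.0% with totals without the 100 most abundant and 64.2% with TMM on the 2 libraries alone. The median log2 ratio under these was 0.83, 0.19, -0.049, 0.32 and 0.045. It was 0.082 at 5 scaled CPM or more. The higher share was 65.6% with that filter, 71.5% with no filter beyond more than 3 counts, 68.0% with a pseudocount of 1 scaled CPM, 71.6% when the interval had to lie beyond 4-fold and 60.1% at 2-fold. The higher count was 4786 with the 5 scaled CPM filter and 4574 with the pseudocount. The lower count was 2209 with total counts, 2150 with the pseudocount and 7604 at 2-fold. The other counts stayed within 1.5 times. With total counts the higher group held 53.3% of seedling and 2.82% of AA1 counts and the lower group 2.17% and 53.1%. With the 5 scaled CPM filter these were 46.4%, 1.56%, 4.03% and 59.1%. Group medians in dry seed and B1 moved to 0.33 and 0.87 (higher group) with total counts, where the lower group's B1 median was 5.02. With the filter they were 0.56 and 2.78 (higher) and 37.5 and 15.8 (lower). Among members that passed the limit in dry seed or B1, with groups called again, the median log2 ratio of dry seed to B1 was -1.14 and 2.06 in the higher and lower groups with total counts. It was -2.94 and 1.23 with the filter. Gene models that entered both comparisons had 1.20 with total counts. The share of the higher group 4-fold lower in dry seed was 56.0% with a common floor and 33.7% when every member was counted with that floor, because members without 1 scaled CPM in dry seed or B1 then entered the denominator. Next neighbours were also higher in 36.5% (31.7% of all) with total counts and 16.3% (11.7%) counting gene models that did not enter. For lower ones this was 11.9% (6.83%) and 10.4% (5.05%). The 4 named folds stayed inside their counting intervals under all 5 scalings. These intervals are wide because 1 count of each pair is at most 7, so this could hardly have come out otherwise. For Glyma07g01730 the fold ran from 95543 with the upper quartile to 162845 with total counts, inside an interval of 38939 to 551815. The causes of these shifts were not tested. Depth limits low levels most in B1.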

Other observations

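Several runs of neighbouring gene models were called the same way. In identifier order among those that entered, 478 runs of at least 3 neighbours were at least 4-fold higher in the seedling and held 1675 gene models, and 67 runs with 221 gene models were lower. The next gene model was also higher in 29.4% of cases, against 24.8% of all, and also lower in 15.6%, against 10.7%. The number of runs that the general shares alone would give was not computed. The run counts by themselves thus do not show that neighbours moved together. The longest higher run had 10 members on chromosome 18 and summed to 39.3 scaled CPM in the seedling and 3.84 in AA1, with 18.4 in B1 and 16.5 in dry seed. A run of 8 on chromosome 6 summed to 174 scaled CPM in the seedling and 9.13 in AA1, with 72.3 in B1 and 1.42 in dry seed. The longest lower run had 7 members on chromosome 9 and summed to 1.03 scaled CPM in the seedling and 61.2 in AA1. It stood at 0.75 in B1 and 347 in dry seed, so it was highest in dry seed. That library alone held seed coat and axis, and their part in this level was not tested. These runs were picked for their length after the data were seen, and reads shared between adjacent copies were not examined.

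Some neighbours moved in opposite directions. Of 1488 neighbouring pairs with 1 member at least 4-fold higher and the other at least 4-fold lower, 15 pairs were at least 100-fold apart on both sides. At 4-fold, a higher one was followed by a lower one in 9.71% of cases, against 10.7% of all. A lower one was followed by a higher one in 22.3%, against 24.8% of all. Of all gene models that entered, 2.89% were at least 100-fold higher and 0.84% lower. The number of pairs that these shares alone would give was not computed, so the 15 are no result about neighbours. The pair with the largest smaller fold lies on chromosome 15, by its identifiers. One member had 845 scaled CPM in the seedling and 0 counts in AA1, at least 11284-fold higher with AA1 at the floor of 3 counts, and it had 0 counts in B1 and 0.17 scaled CPM in dry seed. The other, the third by reads in AA1, had 34.2 scaled CPM in the seedling and 17877 in AA1, and was 523-fold lower in the seedling (497 to 551). It had 52230 in B1 and 12780 in dry seed. In AA1 the 2 neighbours thus stood at 0 and 716252 counts within the same library.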
